A study of Mus musculus with 15 samples.

Results

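The genes described here are 45 mouse genes of mitosis, chosen by symbol and by function: kinases and cyclins of the G2-to-M transition, the spindle checkpoint, kinetochore and centromere proteins, the chromosomal passenger complex, mitotic kinesins, spindle assembly factors, cytokinesis proteins, factors of anaphase and mitotic exit, condensin, and Mki67, Top2a and Foxm1 as markers and regulator of proliferating cells. All 45 were among the 24411 gene symbols with counts, and all 45 were among the 14098 genes tested. Their summed level was 71.6 ± 3.9 CPM (counts scaled to a common library total) in wild-type liver and 726 ± 131 CPM (SD, n = 3) in livers carrying 3 transgenes.

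Mitosis is driven by cyclin-dependent kinase 1 bound to cyclins, with the Polo-like and Aurora kinases building the spindle, the checkpoint holding anaphase until every kinetochore is attached, and the anaphase-promoting complex then releasing the sister chromatids and destroying the cyclins. Most of these messenger RNAs rise only in G2 and M, so their level in a tissue is widely used as a readout of dividing cells. Hepatocytes of the adult liver rarely divide, but re-enter the cycle after injury and in tumours. Many of the genes share a pair of promoter elements: the CCAAT box, bound by NF-Y, and the cell cycle genes homology region (CHR, TTTGAA), bound by the DREAM and MuvB complexes, which repress in quiescence and, with B-MYB and FOXM1, activate in G2.

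Messenger RNA (polyA RNA) of fresh frozen liver from male FVB/NJ mice was sequenced in 5 groups of 3 libraries. Wild-type liver (WT) was compared with livers labelled with S45Y-CTNNB1 and hMET (CTNNB1_MET), with G31A-NFE2L2 and hMET (NFE2L2_MET), with S45Y-CTNNB1 and G31A-NFE2L2 (CTNNB1_NFE2L2), or with S45Y-CTNNB1, G31A-NFE2L2 and hMET together (CTNNB1_NFE2L2_MET, called the triple model below). CTNNB1 encodes β-catenin, NFE2L2 the antioxidant regulator NRF2, and hMET the human receptor of hepatocyte growth factor. Age, the vector and promoter of the transgenes, the share of tumour in the tissue, and whether the libraries of a group came from separate animals are not given in the sources used, so the p-values reflect how these libraries vary, which may be technical. No group carries a transgene alone, so each transgene can be read only as added to the other pair. In whole liver, fewer cells expressing a gene and less of its RNA per cell cannot be told apart.

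The promoters of 7 members are shown as examples, with CCAAT boxes visible in each and CHR elements in Cdk1, Cdc20, Top2a and Kif11. Each line holds the 120 bases just before the RefSeq start site (GRCm38.p6, the mm10 assembly), 5′ to 3′ on the strand of the gene, and the capitals mark CCAAT boxes and CHR elements (TTTGAA or TTCGAA) on either strand. A CCAAT box on the other strand reads as its reverse complement.
Cdk1 (chr10:69352913-69353032, minus strand): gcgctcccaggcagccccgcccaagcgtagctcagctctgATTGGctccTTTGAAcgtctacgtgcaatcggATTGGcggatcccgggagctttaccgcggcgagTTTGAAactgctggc
Ccnb2 (chr9:70421555-70421674, minus strand): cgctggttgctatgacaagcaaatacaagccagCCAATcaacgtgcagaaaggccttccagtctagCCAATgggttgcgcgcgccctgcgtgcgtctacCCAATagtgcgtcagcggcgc
Bub1 (chr2:127831860-127831979, minus strand): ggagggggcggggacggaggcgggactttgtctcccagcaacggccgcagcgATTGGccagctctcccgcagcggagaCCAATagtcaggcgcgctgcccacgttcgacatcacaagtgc
Cdc20 (chr4:118437344-118437463, minus strand): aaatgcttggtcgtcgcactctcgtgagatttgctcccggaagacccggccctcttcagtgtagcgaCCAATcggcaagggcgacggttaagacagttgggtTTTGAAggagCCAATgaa
Top2a (chr11:99024190-99024309, minus strand): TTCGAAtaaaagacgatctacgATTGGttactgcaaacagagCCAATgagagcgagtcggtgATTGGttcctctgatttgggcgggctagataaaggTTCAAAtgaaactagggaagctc
Kif11 (chr19:37376262-37376381, plus strand): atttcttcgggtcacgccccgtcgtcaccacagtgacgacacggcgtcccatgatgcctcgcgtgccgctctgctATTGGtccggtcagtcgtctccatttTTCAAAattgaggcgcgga
Hmmr (chr11:40733438-40733557, minus strand): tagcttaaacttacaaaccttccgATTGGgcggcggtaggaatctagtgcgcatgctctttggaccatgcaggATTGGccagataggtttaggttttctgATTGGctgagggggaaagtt
Positions count from -1 at the last base before the start and from 1 at the start itself. Cdk1 has CCAAT boxes at -80 and -48 and CHR elements at -71 and -15, Top2a has a CHR at -23 behind CCAAT boxes at -98, -78 and -58, and Kif11 has a CHR at -19 and a CCAAT box at -45. In Ccnb2, Bub1 and Hmmr the CHR nearest the start lies beyond the printed bases, at 5, 15 and 9.

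A RefSeq promoter, 250 bases before to 50 after a start site, was matched for 38 of the 45 members. TTTGAA on either strand was found in 27 of the 38 (71.1%), against 18.2% of all 27025 RefSeq promoters and 12.2% of the 10703 promoters of tested genes. TTCGAA, which is its own reverse complement, was found in 3, and 28 members (73.7%) held one form or the other, against 13.9% of tested genes. The position was narrow: 26 of 38 members (68.4%) had a CHR from 30 bases before to 50 after the start, against 4.12% of all promoters and 2.76% of those of tested genes, a window set after the positions had been seen. CCAAT was found in 28 members (73.7%), against 38.5% of tested genes, and 25 (65.8%) held both elements, against 5.71%. The E2F-type letters TTTCCCGC and TTTGGCGC were found in 1 (2.63%) and 0 members, near the 1.96% and 1% of tested genes. Members with both elements and members without overlapped in response: the median log2 fold change of the triple model against WT was 3.38 (n = 25, range 1.77 to 5.12) with both and 3.67 (n = 13, range 2.43 to 4.12) without both. A match of letters is a description of the sequence and not evidence of binding in these livers.

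**Figure D1:**
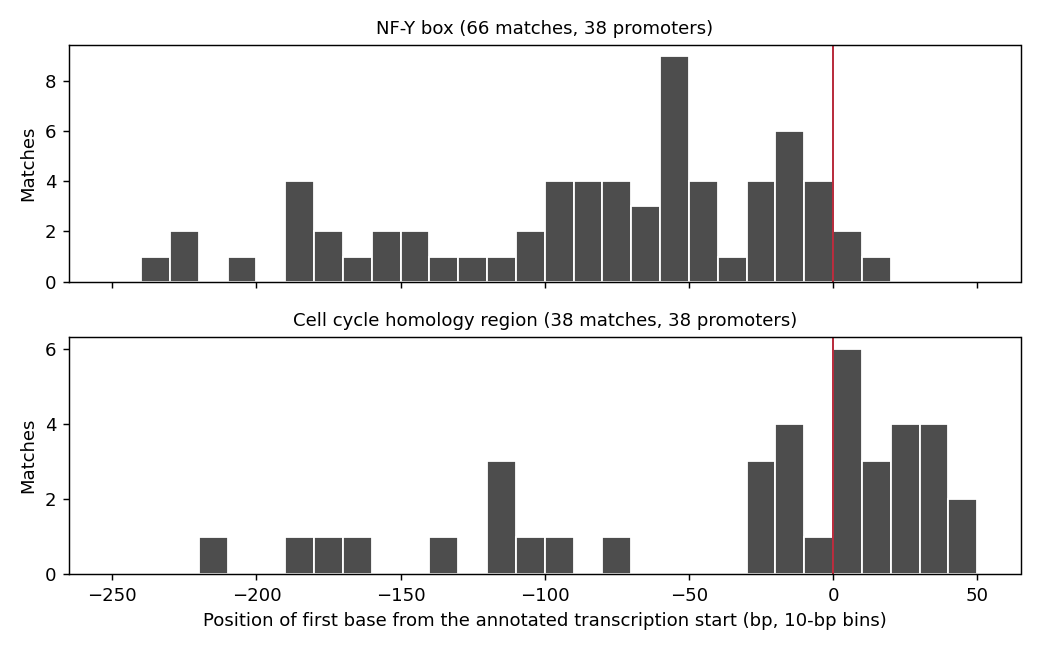
Histograms of the positions of NF-Y (CCAAT) boxes and CHR elements in the 38 matched promoters, in bins of 10 bases; the x axis is the distance of the first base of a match from the RefSeq start, marked by the red line, and the y axis the number of matches on either strand. In 26 of 38 members a CHR lies from 30 bases before to 50 bases after the start, and most CCAAT boxes lie upstream of it.

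Gene counts summed to between 14084343 and 20702618 in a library, and the members took from 1026 counts in the shallowest WT library to 18227 in a triple-model library. Members are therefore measured on few counts in WT: the low-count limit of 0.5751 CPM was reached in all 3 libraries by 32 of 45 members in WT, by 35 in NFE2L2_MET and by 45 in each of the other 3 groups, so that the rest passed through the groups where they are higher. In WT 15 members had a count under 10 in at least 1 library. The share of unmapped reads moved with the groups, at 19.8 to 25.9% in WT, 15.8 to 19.1% in CTNNB1_MET, 12.7 to 14.2% in NFE2L2_MET, 9.71 to 11.8% in CTNNB1_NFE2L2 and 8.69 to 11.2% in the triple model. Because it moved with the groups, the counts were also fitted with it as a term, and the number of members called then stands in the paragraph of each comparison. Unless stated, shares of all tested genes come from the fit of all libraries without that term. With that term no member was called in NFE2L2_MET against WT by edgeR (1 at an unadjusted p under 0.05), which applies to each such call below. WT replicate 3, triple-model replicate 3 and CTNNB1_MET replicate 3 are marked as added in their file labels, and the number of members called without them stands in the paragraph of each comparison. Hepatocyte markers (Alb, Ttr, Apoa1, Serpina1c and Hnf4a) summed to at least 23226 CPM in every library.

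The 5 groups formed a graded series. The summed CPM of the 45 members was 67.1 to 73.9 in the WT libraries, 75.8 to 126 in NFE2L2_MET, 218 to 305 in CTNNB1_MET, 569 to 693 in CTNNB1_NFE2L2 and 637 to 876 in the triple model. The ranges of CTNNB1_NFE2L2 and the triple model overlapped, and the lowest NFE2L2_MET library, at 75.8, lay just above the highest WT library, at 73.9. Relative to WT, the group means were 1.40, 3.58, 8.57 and 10.1 times as high. Gene by gene, 34 of 45 members had their group means in exactly this order; the triple model and CTNNB1_NFE2L2 changed places in 10 members, and NFE2L2_MET and WT in Anln and Nek2.

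**Figure D2:**
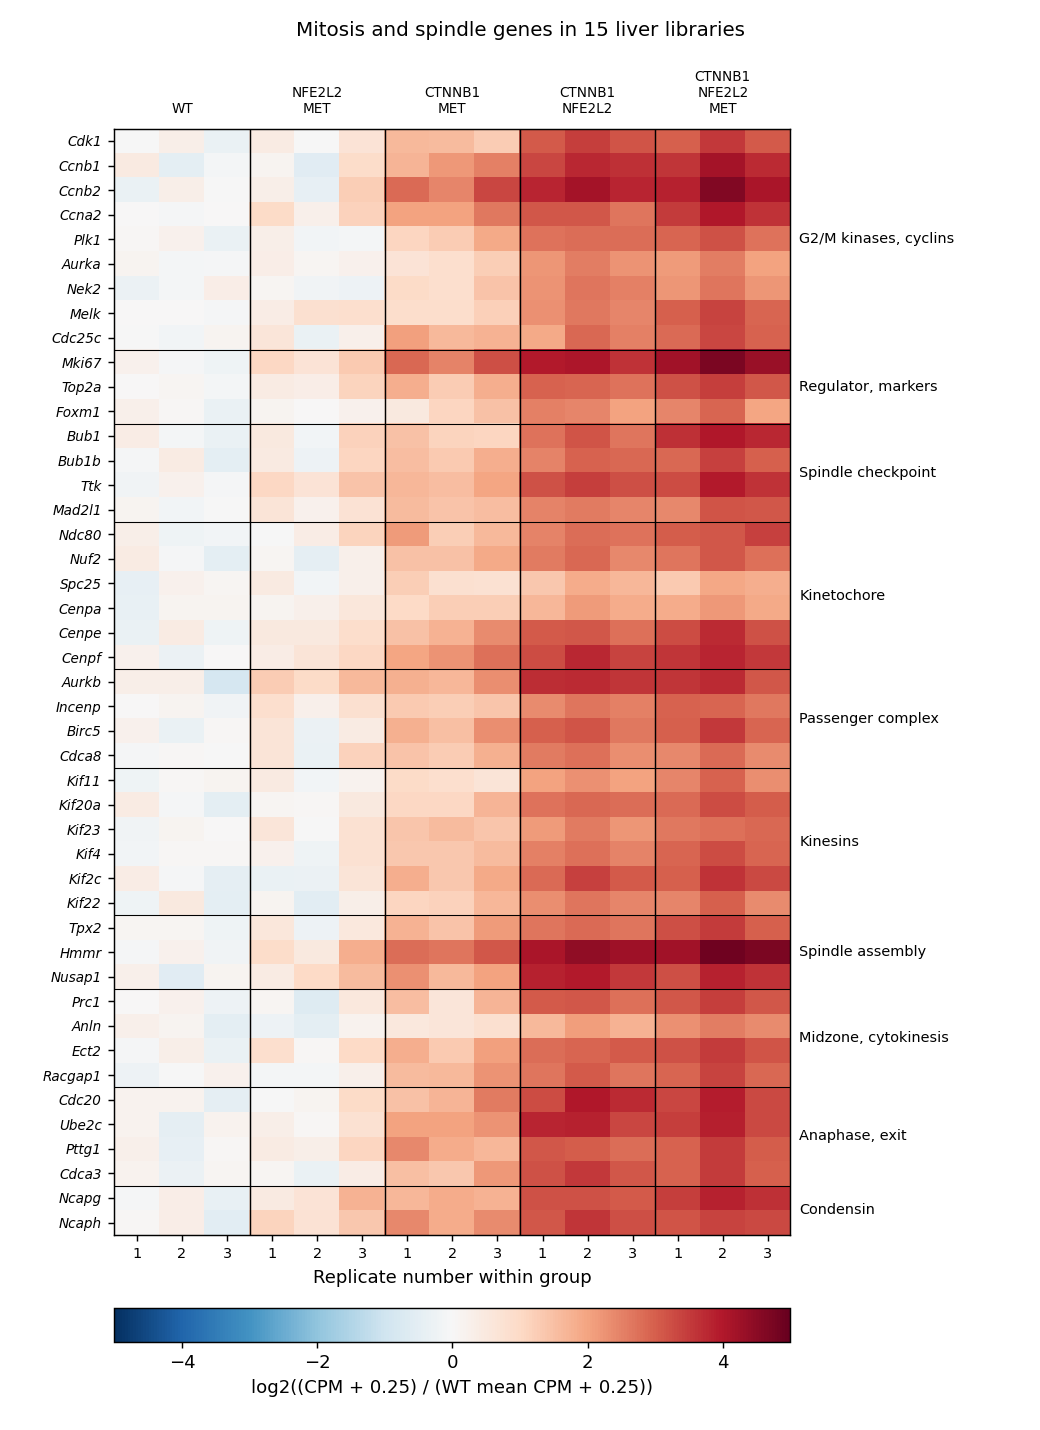
Heat map of the 45 members (rows, by role) in the 15 libraries (columns, by group), coloured by log2 of the ratio of CPM plus 0.25 to the member's mean WT CPM plus 0.25. Every member has its highest group mean in CTNNB1_NFE2L2 or the triple model, and the WT and NFE2L2_MET columns are close to each other.

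Mki67, the nuclear antigen used to score proliferation in tissue sections, showed the series plainly. Its level was 3.81, 3.08 and 2.76 CPM in WT, 6.78, 5.32 and 8.36 in NFE2L2_MET, 25.3, 19.3 and 32.2 in CTNNB1_MET, 54.1, 56.3 and 42.6 in CTNNB1_NFE2L2 and 63.9, 91.1 and 67.9 in the triple model. The 5 groups did not overlap. Against WT its log2 fold change (all by edgeR's quasi-likelihood test) was 4.53 ± 0.24 (SE) in the triple model (adjusted p = 5.16e-09), 3.0 ± 0.23 in CTNNB1_MET (adjusted p = 9.34e-07) and 1.09 ± 0.25 in NFE2L2_MET (adjusted p = 0.00597). All adjusted p-values below come from this test, with Benjamini-Hochberg adjustment over the 14098 genes and a threshold of 0.05, and errors of log2 fold changes are SE.
Top2a, the topoisomerase that untangles sister chromatids, measured 3.81, 4.03 and 3.53 CPM in WT, 5.13, 4.79 and 8.48 in NFE2L2_MET, 14, 9.57 and 13.9 in CTNNB1_MET, 30.6, 30.3 and 26.2 in CTNNB1_NFE2L2 and 36.1, 43.7 and 34.6 in the triple model. Its groups did not overlap either, and NFE2L2_MET was called above WT (0.70 ± 0.22, adjusted p = 0.0307). Foxm1, the forkhead activator of G2 genes, measured 1.65, 1.42 and 1.03 CPM in WT, 1.53, 1.4 and 1.6 in NFE2L2_MET, 2.02, 3.12 and 4.18 in CTNNB1_MET, 9.03, 8.62 and 6.22 in CTNNB1_NFE2L2 and 8.55, 11.8 and 6.18 in the triple model. Here WT and NFE2L2_MET overlapped, and so did CTNNB1_NFE2L2 and the triple model. Foxm1 rose by 2.69 ± 0.30 in the triple model and by 1.19 ± 0.32 in CTNNB1_MET (adjusted p = 0.0173), and its NFE2L2_MET difference from WT was 0.15 ± 0.34 (adjusted p = 0.784).

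**Figure D3:**
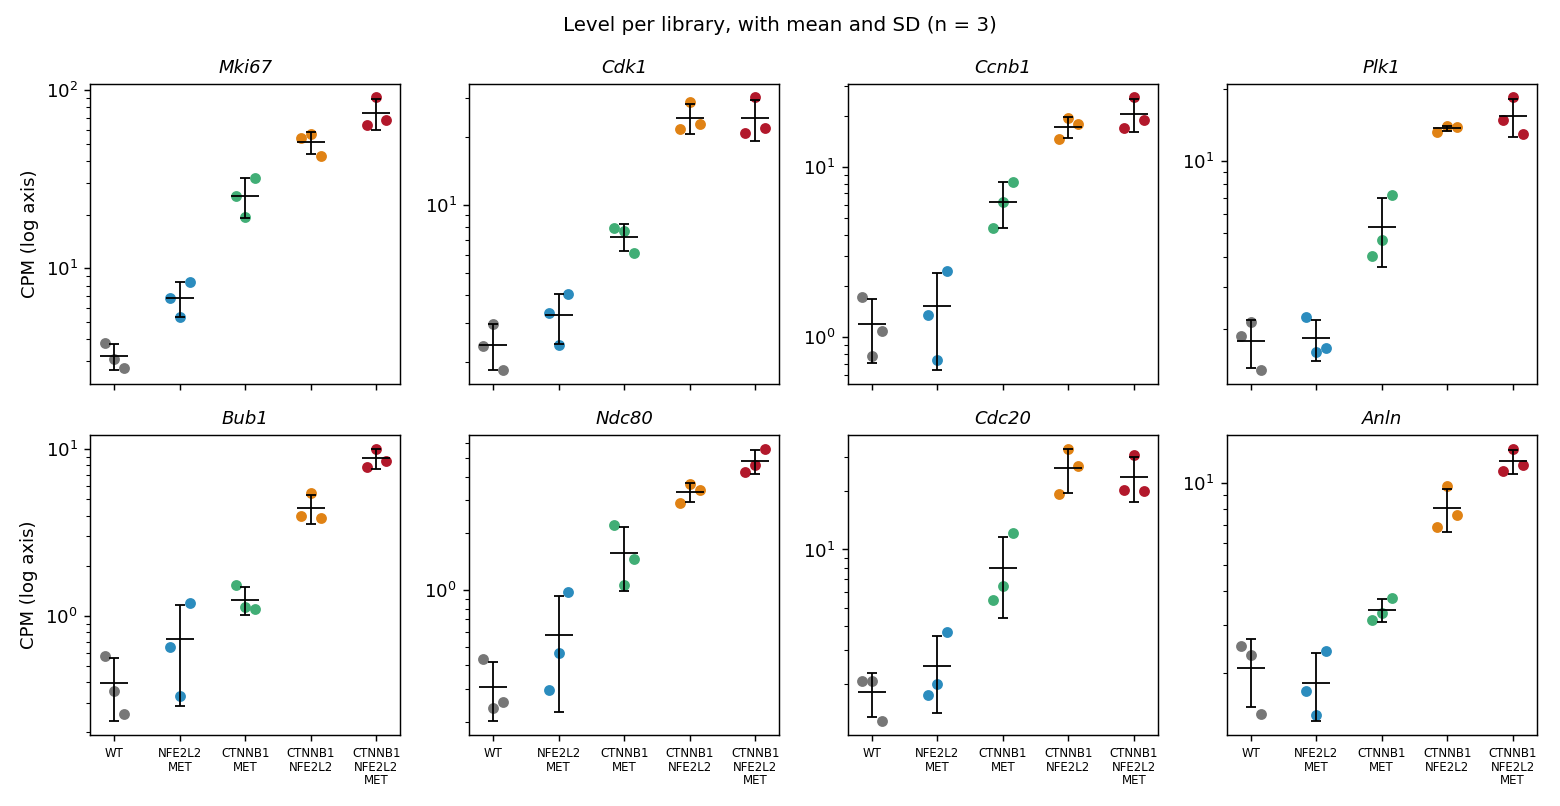
CPM of 8 members (Mki67, Cdk1, Ccnb1, Plk1, Bub1, Ndc80, Cdc20 and Anln) in each library (points, log axis) for the 5 groups, with black bars at the group means and error bars of 1 SD (n = 3). In each panel the CTNNB1_NFE2L2 and triple-model libraries stand above those of CTNNB1_MET, which stand above WT.

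Among the kinases and cyclins, Cdk1, the kinase whose activity starts mitosis, measured 2.37, 2.97 and 1.86 CPM in WT, 3.3, 2.4 and 4.01 in NFE2L2_MET, 7.91, 7.65 and 6.11 in CTNNB1_MET, 21.8, 28.7 and 22.9 in CTNNB1_NFE2L2 and 20.8, 30.1 and 21.9 in the triple model. Ccnb1, cyclin B1, its mitotic partner, measured 1.73, 0.771 and 1.09 CPM in WT, 1.36, 0.732 and 2.46 in NFE2L2_MET, 4.41, 6.24 and 8.14 in CTNNB1_MET, 14.5, 19.4 and 17.9 in CTNNB1_NFE2L2 and 17.1, 25.7 and 19 in the triple model. Both had WT and NFE2L2_MET overlapping at the bottom and CTNNB1_NFE2L2 and the triple model overlapping at the top, with CTNNB1_MET apart between them. For Cdk1 the 2 upper groups had means of 24.5 ± 3.71 and 24.3 ± 5.07 CPM, a log2 difference of -0.01 ± 0.18 with a 95% interval of -0.40 to 0.38.
Ccna2, cyclin A2, which acts from S phase to early mitosis, measured 1.08, 1.01 and 1.09 CPM in WT, 2.3, 1.33 and 2.63 in NFE2L2_MET, 4.97, 4.96 and 7.88 in CTNNB1_MET, 10.9, 11 and 8.06 in CTNNB1_NFE2L2 and 14.7, 20.5 and 15.7 in the triple model. Its 5 groups did not overlap, and it was called both when MET was added to CTNNB1_NFE2L2 (0.77 ± 0.21, adjusted p = 0.017) and in NFE2L2_MET against WT (0.99 ± 0.31, adjusted p = 0.0304). Whether Ccna2 differed from Cdk1 and Ccnb1 in these comparisons was not tested. Without triple-model replicate 2 no member was called when MET was added to CTNNB1_NFE2L2, which applies to each such call below. Part of the exon sequence of Ccna2 (12.5%) is shared with Exosc9 on the other strand, and unstranded counts cannot divide such reads.
Plk1, the Polo-like kinase of centrosomes, kinetochores and cytokinesis, measured 1.87, 2.14 and 1.35 CPM in WT, 2.24, 1.6 and 1.66 in NFE2L2_MET, 4.05, 4.68 and 7.26 in CTNNB1_MET, 13.3, 14 and 13.8 in CTNNB1_NFE2L2 and 14.8, 18.5 and 12.9 in the triple model. Aurka, the Aurora kinase of centrosomes and spindle poles, measured 2.88, 2.37 and 2.44 CPM in WT, 3.3, 2.73 and 3.04 in NFE2L2_MET, 4.29, 4.82 and 6.26 in CTNNB1_MET, 12.7, 16.5 and 13.2 in CTNNB1_NFE2L2 and 12.1, 16.4 and 11.2 in the triple model. For both genes the WT and NFE2L2_MET libraries were interleaved, with log2 differences of 0.04 ± 0.27 and 0.24 ± 0.21 that were not called. Melk, a kinase of proliferating progenitors, and Nek2, which separates centrosomes, completed the kinases, together with Ccnb2 and with Cdc25c, the phosphatase that activates Cdk1. Melk was called in the triple model against CTNNB1_NFE2L2 (0.69 ± 0.22, adjusted p = 0.0304), and Nek2 was the kinase whose mean was lower in NFE2L2_MET (4.93 ± 0.648 CPM) than in WT (5.34 ± 1.25 CPM), a difference that was not called (-0.12 ± 0.22).

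The spindle checkpoint delays anaphase while kinetochores are unattached. Bub1b (BUBR1), a subunit of the inhibitor that it sends to the anaphase-promoting complex, measured 0.935, 1.42 and 0.641 CPM in WT, 1.47, 0.799 and 2.41 in NFE2L2_MET, 3.43, 2.83 and 4.18 in CTNNB1_MET, 6.67, 9.3 and 8.95 in CTNNB1_NFE2L2 and 8.81, 13.2 and 9.63 in the triple model. Mad2l1 (MAD2), another subunit of that inhibitor, measured 3.16, 2.55 and 2.82 CPM in WT, 4.6, 3.33 and 4.87 in NFE2L2_MET, 9.01, 8.01 and 8.82 in CTNNB1_MET, 17, 18.6 and 16.6 in CTNNB1_NFE2L2 and 16.3, 27.5 and 26.5 in the triple model. In Bub1b the WT and NFE2L2_MET libraries overlapped, whereas in Mad2l1 all 3 NFE2L2_MET libraries were above all WT libraries without being called (0.59 ± 0.22, adjusted p = 0.0582).
Bub1, the kinase that recruits the checkpoint proteins, had the largest difference of the 45 members between the triple model and CTNNB1_NFE2L2, and also between the triple model and CTNNB1_MET. Its level was 0.575, 0.356 and 0.257 CPM in WT, 0.648, 0.333 and 1.2 in NFE2L2_MET, 1.53, 1.13 and 1.1 in CTNNB1_MET, 3.96, 5.49 and 3.89 in CTNNB1_NFE2L2 and 7.78, 10.1 and 8.51 in the triple model. No triple-model library overlapped any other group, and the log2 difference was 0.98 ± 0.27 against CTNNB1_NFE2L2 (adjusted p = 0.0149) and 2.81 ± 0.31 against CTNNB1_MET (adjusted p = 8.79e-06). NFE2L2_MET replicate 3 (1.20 CPM) lay within the CTNNB1_MET range for Bub1, and the groups were not called different (-0.75 ± 0.37, adjusted p = 0.196). Ttk (MPS1), the kinase that starts checkpoint signalling, measured 0.216, 0.356 and 0.257 CPM in WT, 0.825, 0.599 and 1.15 in NFE2L2_MET, 1.41, 1.28 and 1.83 in CTNNB1_MET, 4.49, 5.59 and 4.72 in CTNNB1_NFE2L2 and 4.86, 7.93 and 6.23 in the triple model. It was above WT in NFE2L2_MET (1.60 ± 0.38, adjusted p = 0.00752), and NFE2L2_MET and CTNNB1_MET were not called different (-0.81 ± 0.29, adjusted p = 0.0815).

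Kinetochore and centromere genes build the site where chromosomes meet microtubules. Ndc80, the microtubule-binding subunit of the outer kinetochore, measured 0.431, 0.237 and 0.257 CPM in WT, 0.295, 0.466 and 0.974 in NFE2L2_MET, 2.21, 1.06 and 1.46 in CTNNB1_MET, 2.9, 3.66 and 3.39 in CTNNB1_NFE2L2 and 4.25, 4.62 and 5.64 in the triple model. Cenpa, the histone variant that marks centromeres, measured 2.88, 4.21 and 4.23 CPM in WT, 4.18, 4.59 and 5.73 in NFE2L2_MET, 7.78, 9.14 and 9.19 in CTNNB1_MET, 12.4, 17.2 and 14.4 in CTNNB1_NFE2L2 and 14.3, 18 and 14.8 in the triple model. Cenpe, a kinesin-like kinetochore motor, measured 0.647, 1.25 and 0.706 CPM in WT, 1.3, 1.33 and 1.78 in NFE2L2_MET, 2.82, 3.47 and 5.43 in CTNNB1_MET, 9.18, 9.25 and 7.34 in CTNNB1_NFE2L2 and 10.3, 14.6 and 9.92 in the triple model.
Cenpe kept its 5 groups apart, while Ndc80 and Cenpa had WT and NFE2L2_MET overlapping. Cenpa and Spc25 (an Ndc80-complex subunit) had the smallest rises of the 45 members in the triple model against WT. The log2 differences were 2.05 ± 0.18 for Cenpa and 1.77 ± 0.23 for Spc25, beside 3.96 ± 0.40 for Ndc80 and 3.94 ± 0.26 for Cenpf, a large kinetochore protein of G2. Spc25 and Cenpa also had the highest WT levels per kilobase of transcript among these 6 genes, 2.16 ± 0.491 and 2.57 ± 0.53 CPM per kilobase.

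The chromosomal passenger complex corrects faulty attachments and later guides cytokinesis; Aurkb is its kinase, Incenp its scaffold, and Birc5 (survivin) and Cdca8 (borealin) its targeting subunits. Aurkb measured 0.575, 0.593 and 0.128 CPM in WT, 1.41, 1.06 and 1.83 in NFE2L2_MET, 2.08, 1.91 and 3.13 in CTNNB1_MET, 8.45, 8.78 and 7.89 in CTNNB1_NFE2L2 and 7.83, 8.7 and 5.64 in the triple model. Incenp measured 2.88, 3.08 and 2.5 CPM in WT, 5.19, 3.39 and 5.16 in NFE2L2_MET, 7.42, 6.87 and 7.88 in CTNNB1_MET, 15.6, 19.5 and 17.5 in CTNNB1_NFE2L2 and 23.2, 23 and 18.7 in the triple model. These 2 subunits were called above WT in NFE2L2_MET (Aurkb 1.73 ± 0.40, adjusted p = 0.00671; Incenp 0.70 ± 0.18, adjusted p = 0.0126), and no NFE2L2_MET library of either overlapped WT.
Birc5 measured 2.37, 1.54 and 2.12 CPM in WT, 3.3, 1.6 and 2.75 in NFE2L2_MET, 7.42, 6.24 and 11 in CTNNB1_MET, 17.8, 19.8 and 13.7 in CTNNB1_NFE2L2 and 17.5, 26.2 and 16.8 in the triple model, and its WT and NFE2L2_MET libraries overlapped (0.36 ± 0.33, adjusted p = 0.456). Between NFE2L2_MET and CTNNB1_MET, Birc5 was called lower in NFE2L2_MET (-1.68 ± 0.29, adjusted p = 0.000933). Every NFE2L2_MET library of Aurkb also lay below CTNNB1_MET, but Aurkb was not called (-0.73 ± 0.32, adjusted p = 0.143). Whether Aurkb and Birc5 differed from each other in this was not tested.

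Of the 6 mitotic kinesins, Kif11 (Eg5), the motor that pushes spindle poles apart, measured 1.44, 1.84 and 1.92 CPM in WT, 2.48, 1.53 and 2.0 in NFE2L2_MET, 3.62, 3.33 and 2.87 in CTNNB1_MET, 7.68, 9.41 and 7.73 in CTNNB1_NFE2L2 and 10.4, 15 and 9.78 in the triple model. Every triple-model library was above every CTNNB1_NFE2L2 library, but the difference missed the threshold (0.51 ± 0.19, adjusted p = 0.0651), as did NFE2L2_MET against CTNNB1_MET (-0.70 ± 0.23, adjusted p = 0.0546). Kif20a (MKLP2), which carries the passenger complex to the spindle midzone, measured 2.73, 1.9 and 1.35 CPM in WT, 2.12, 2.06 and 2.86 in NFE2L2_MET, 4.35, 4.39 and 6.94 in CTNNB1_MET, 14.4, 16 and 15.5 in CTNNB1_NFE2L2 and 15.9, 21.3 and 18.1 in the triple model. Kif22 (KID), which moves chromosome arms away from the poles, measured 1.29, 2.25 and 1.03 CPM in WT, 1.71, 0.998 and 1.95 in NFE2L2_MET, 3.49, 3.68 and 5.43 in CTNNB1_MET, 8.55, 11.2 and 9.28 in CTNNB1_NFE2L2 and 9.47, 13.9 and 8.85 in the triple model.
In both, WT and NFE2L2_MET overlapped and so did CTNNB1_NFE2L2 and the triple model. Kif20a shares 29.3% of its exon bases with Cdc23 on the other strand and Kif4 shares 15.1% with Pdzd11, so their levels are uncertain. The median log2 difference of the 6 kinesins between NFE2L2_MET and WT was 0.23.
Tpx2, which activates Aurora A on the spindle, measured 1.94, 1.96 and 1.54 CPM in WT, 2.77, 1.46 and 2.69 in NFE2L2_MET, 6.62, 5.24 and 8.82 in CTNNB1_MET, 13.1, 14.3 and 13.1 in CTNNB1_NFE2L2 and 19.1, 23.1 and 16.2 in the triple model, with every triple-model library above CTNNB1_NFE2L2 (0.53 ± 0.20, adjusted p = 0.0632). Hmmr, a spindle-pole protein, had the highest rise of all 45 members against WT, 5.12 ± 0.33 in the triple model, 4.76 ± 0.34 in CTNNB1_NFE2L2 and 3.33 ± 0.35 in CTNNB1_MET. Its means were 0.535 ± 0.105 CPM in WT and 19 ± 4.33 CPM in the triple model. The WT mean rested on 7, 11 and 7 counts, under the low-count limit in WT replicates 1 and 3. Hmmr therefore passed that limit through the groups where it is higher, and the size of its rise is uncertain. Hmmr and Nusap1, a microtubule bundling protein, were also called above WT in NFE2L2_MET (1.52 ± 0.40 and 1.41 ± 0.41).

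In cytokinesis, Prc1 bundles the microtubules of the midzone, Ect2 is an exchange factor that acts there, Racgap1 forms the centralspindlin complex with Kif23, and Anln (anillin) scaffolds the contractile ring. Prc1 measured 1.94, 2.25 and 1.54 CPM in WT, 2.06, 1.13 and 2.86 in NFE2L2_MET, 6.01, 3.05 and 6.84 in CTNNB1_MET, 17.7, 18.6 and 14.4 in CTNNB1_NFE2L2 and 18.2, 23.2 and 18.4 in the triple model. Ect2 measured 1.29, 1.72 and 1.03 CPM in WT, 2.59, 1.4 and 2.98 in NFE2L2_MET, 5.33, 3.68 and 6.37 in CTNNB1_MET, 11, 11.7 and 13 in CTNNB1_NFE2L2 and 14.1, 18 and 14.1 in the triple model. Both were higher in every CTNNB1_MET library than in WT, and Prc1 shares 11.1% of its exon bases with Rccd1 on the other strand.
Anln measured 2.52, 2.31 and 1.41 CPM in WT, 1.71, 1.4 and 2.41 in NFE2L2_MET, 3.13, 3.33 and 3.76 in CTNNB1_MET, 6.91, 9.72 and 7.61 in CTNNB1_NFE2L2 and 11.1, 13.4 and 11.6 in the triple model. Its CTNNB1_MET libraries were all above WT, but it was the member that was not called there (0.72 ± 0.24, adjusted p = 0.0528). NFE2L2_MET overlapped WT (-0.17 ± 0.26, adjusted p = 0.675), and the triple model was called above CTNNB1_NFE2L2 (0.57 ± 0.20, adjusted p = 0.0483).

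Anaphase and mitotic exit were represented by Cdc20, the activator of the anaphase-promoting complex, Ube2c, its ubiquitin-conjugating enzyme, Pttg1 (securin), the inhibitor of separase that it destroys, and Cdca3. Cdc20 measured 2.09, 2.08 and 1.28 CPM in WT, 1.77, 2.0 and 3.72 in NFE2L2_MET, 5.46, 6.45 and 12.1 in CTNNB1_MET, 19.4, 33 and 27.2 in CTNNB1_NFE2L2 and 20.4, 31 and 20.2 in the triple model. Ube2c measured 1.58, 0.949 and 1.6 CPM in WT, 1.77, 1.46 and 2.52 in NFE2L2_MET, 6.38, 6.24 and 7.52 in CTNNB1_MET, 22.5, 23.3 and 16.5 in CTNNB1_NFE2L2 and 17.7, 23.6 and 15.6 in the triple model. Pttg1 measured 3.09, 1.84 and 2.69 CPM in WT, 3.42, 3.13 and 5.56 in NFE2L2_MET, 14.5, 9.92 and 8.46 in CTNNB1_MET, 23.6, 22.7 and 18.9 in CTNNB1_NFE2L2 and 21.6, 31.2 and 22.6 in the triple model.
In Cdc20, Ube2c and Cdca3 the mean of CTNNB1_NFE2L2 was above that of the triple model, with overlapping libraries and no call (-0.15 ± 0.30, -0.13 ± 0.19 and -0.11 ± 0.22). Pttg1 kept NFE2L2_MET above WT in all 3 libraries, without a call (0.68 ± 0.29, adjusted p = 0.102). Ube2c shares 22.8% of its exon bases with Tnnc2 on the other strand.
Ncapg and Ncaph are non-SMC subunits of condensin I, which compacts mitotic chromosomes. Ncapg measured 0.216, 0.356 and 0.128 CPM in WT, 0.413, 0.532 and 1.37 in NFE2L2_MET, 1.29, 1.49 and 1.36 in CTNNB1_MET, 4.11, 4.18 and 3.83 in CTNNB1_NFE2L2 and 5.02, 6.63 and 5.89 in the triple model. Its WT level of 0.063 ± 0.031 CPM per kilobase was the lowest of the 45 members and rested on 3, 6 and 2 counts. Both subunits were called above WT in NFE2L2_MET (Ncapg 1.70 ± 0.48, adjusted p = 0.0182; Ncaph 1.43 ± 0.34, adjusted p = 0.00795). Ncapg shares 13.4% of its exon bases with Lcorl on the other strand, and with the counts of 1 strand its difference turned to -0.31 (adjusted p = 0.446).

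Levels can be compared between genes only per length, and the ranks depend on the transcript whose length is used. In CPM per kilobase of the transcript with the longest coding sequence, Pttg1 ranked first of the 45 in every group, from 2.68 ± 0.675 in WT to 26.5 ± 5.61 in the triple model. Birc5 followed in the triple model at 21.3 ± 5.53, then Ube2c at 19.6 ± 4.28, Ccnb2 at 15.8 ± 4.57 and Cdc20 at 13.3 ± 3.45. The lowest there were Cenpf at 1.38 ± 0.145 and Cenpe at 1.47 ± 0.325. Ccnb2 went from rank 15 in WT to rank 4 in the triple model, and Mki67 went from rank 28 to rank 13, and Spc25 went from rank 3 to rank 12. The rank of Ube2c is uncertain because 22.8% of its exon bases are shared with Tnnc2 on the other strand.

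Against WT, every member was higher in the triple model (45 of 45, median log2 fold change 3.38), where 26.5% of all 14098 tested genes were higher. The range was 1.77 (Spc25) to 5.12 (Hmmr, which rested on 7, 11 and 7 counts in WT). All 45 had no overlap between the groups, against 29.2% of tested genes. In CTNNB1_NFE2L2 the 45 members were again all higher (median 3.11, 24.5% of tested genes), from 1.69 ± 0.23 for Spc25 to 4.76 ± 0.34 for Hmmr. In CTNNB1_MET 44 were higher (median 1.92, 11% of tested genes), led by Hmmr, Ccnb2 (3.17 ± 0.41) and Mki67. With a term for the unmapped share, which moved with the groups, 14 members were called in the triple model, 13 in CTNNB1_NFE2L2 and 19 in CTNNB1_MET, and the medians were 2.91, 2.66 and 1.62. That term also lowered the calls over all genes against WT, in the triple model from 49.9% to 2.11%. Without the 3 libraries marked as added, 45, 45 and 38 members were called, with medians of 3.45, 3.12 and 1.59.

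NFE2L2_MET stood nearest to WT. Of 45 members 10 were higher and none lower, where 13.5% of all tested genes were higher and 9.89% lower. The 10 were Aurkb, Ncapg, Ttk, Hmmr, Ncaph, Nusap1, Mki67, Ccna2, Incenp and Top2a, from 1.73 ± 0.40 for Aurkb to 0.70 ± 0.22 for Top2a. The first 6 of these were under the low-count limit in at least 1 WT library, where they rested on 2 to 11 counts, and passed the filter through the groups where they are higher. The median was 0.53 over members and -0.004 over all tested genes. Of the members 43 had a positive difference, and 17 had an unadjusted p under 0.05. The shares of all tested genes for these 2 counts are not given, and members moved together between libraries. The count of 10 moved with the libraries used: without NFE2L2_MET replicate 3 it was 4 and without replicate 2 it was 14. It was 1 when the 6 libraries were fitted alone and 5 without the 3 marked libraries. It was 0 with a term for the unmapped share (median 0.25, with 1 at an unadjusted p under 0.05), while DESeq2 called 10. NFE2L2_MET replicate 3 was the highest of its group in 36 members (80.0%, against 32.5% of tested genes), and replicate 2 the lowest in 35.

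**Figure D4:**
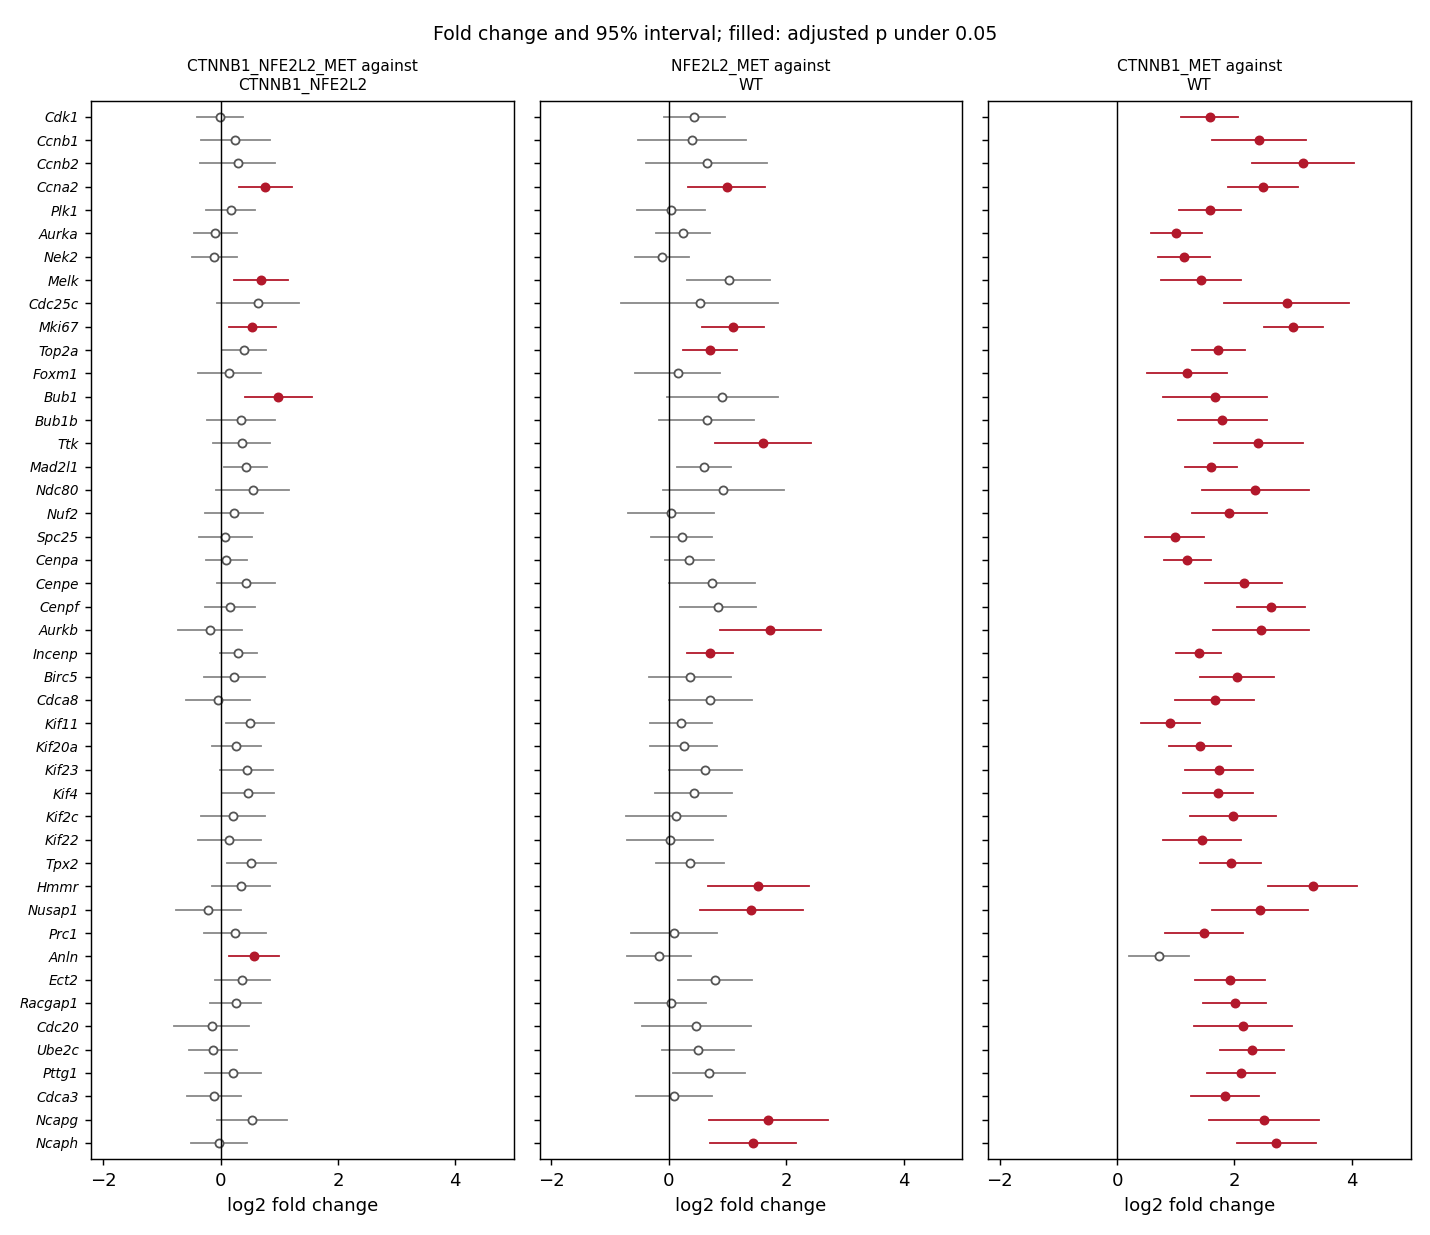
Log2 fold changes of the 45 members (rows) with 95% intervals in 3 panels, the triple model against CTNNB1_NFE2L2, NFE2L2_MET against WT and CTNNB1_MET against WT; red marks passed the adjusted p of 0.05. Of the 45 members 5, 10 and 44 passed, and the line at 0 stands for no difference.

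Adding a transgene to the other pair gave unequal responses. When S45Y-CTNNB1 was added to NFE2L2_MET, 45 of 45 members were higher (median 2.90, where 16.4% of tested genes were higher), from 1.55 ± 0.23 for Spc25 to 3.85 ± 0.37 for Ccnb2. When G31A-NFE2L2 was added to CTNNB1_MET, 45 of 45 were higher (median 1.53, against 18.4%), from 0.79 ± 0.22 for Spc25 to 2.81 ± 0.31 for Bub1. With the term for the unmapped share the first count stayed at 45 and the second came to 9 (median 1.28), and without the 3 marked libraries the counts were 45 and 44. The 16.4% and 18.4% belong to the fit of all libraries without that term.
When hMET was added to CTNNB1_NFE2L2, 5 of 45 were higher and none lower (median 0.26), where 13.1% of tested genes were higher and 11.8% lower. The members' share was no greater than that of all genes. The 5 were Bub1, Ccna2, Melk, Anln and Mki67 (0.54 ± 0.19, adjusted p = 0.0487). Groups did not overlap in 14 members, beside 23.5% of tested genes, and 35 had a positive difference. The median over all tested genes was 0.03. An unadjusted p under 0.05 was found in 10 members, and for 38 of 45 the 95% interval excluded a 2-fold difference in either direction. The shares of all tested genes for the counts of 35, 10 and 38 are not given. With edgeR no member was called without triple-model replicate 2 (2 at an unadjusted p under 0.05) or without CTNNB1_NFE2L2 replicate 3 (5 at an unadjusted p under 0.05). DESeq2 called 3 in all libraries, and edgeR 1 without CTNNB1_NFE2L2 replicate 1. Without WT replicate 2, CTNNB1_MET replicate 1, CTNNB1_NFE2L2 replicate 2 or NFE2L2_MET replicate 1, each left out in turn, 3 were called. With the term for the unmapped share 3 were called, and without the 3 marked libraries 6, of which 4 were among the 5. Triple-model replicate 2 was the highest of its group in 42 members (93.3%, against 27.0% of tested genes), and CTNNB1_NFE2L2 replicate 2 in 41.

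Between models with 2 transgenes, CTNNB1_NFE2L2 was above NFE2L2_MET in all 45 members (median 2.53, where 18.3% of tested genes were higher) and above CTNNB1_MET in 44 (median 1.24, 17.9%). The exception in the second was Cdc25c, with 0.144, 0.119 and 0.192 CPM in WT, 0.354, 0.0665 and 0.229 in NFE2L2_MET, 1.41, 0.992 and 1.1 in CTNNB1_MET, 1.26, 2.67 and 2.06 in CTNNB1_NFE2L2 and 2.61, 3.85 and 2.82 in the triple model, whose CTNNB1_MET and CTNNB1_NFE2L2 libraries overlapped (0.76 ± 0.35, adjusted p = 0.108). With the term for the unmapped share the counts were 45 and 7, and without the 3 marked libraries 45 and 42. The 18.3% and 17.9% belong to the fit of all libraries without that term. NFE2L2_MET was below CTNNB1_MET in 39 members (median -1.29, where 6.96% of tested genes were lower), most in Ccnb2 (-2.52 ± 0.38), Cdc25c (-2.37 ± 0.46) and Ccnb1 (-2.02 ± 0.35).
The 6 not called were Aurkb, Bub1, Kif11, Melk, Ncapg and Ttk. Melk measured 0.36, 0.356 and 0.321 CPM in WT, 0.53, 0.799 and 0.802 in NFE2L2_MET and 0.858, 0.85 and 1.1 in CTNNB1_MET, so that NFE2L2_MET came close to CTNNB1_MET without overlap (-0.41 ± 0.28, adjusted p = 0.396). Among these 6 members, libraries of the 2 groups overlapped in Bub1 and Ncapg. In this comparison the unmapped share was lower in NFE2L2_MET than in CTNNB1_MET, and with its term 31 members were called. Leaving out single libraries gave 30 to 39, and leaving out the 3 marked libraries gave 29.

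Markers of other cells that can divide moved with some of these comparisons. The 6 T and NK cell markers (Cd3e, Cd3g, Cd2, Nkg7, Gzma, Il2rb) summed to 2.50 to 3.60 CPM in WT, 2.53 to 3.27 in NFE2L2_MET, 4.68 to 7.60 in CTNNB1_MET, 2.89 to 5.46 in CTNNB1_NFE2L2 and 6.15 to 9.83 in the triple model, and 4 of 5 tested rose in the triple model against WT. The 7 macrophage markers summed to 193 to 216 CPM in WT and 392 to 596 in the triple model, with 6 of 7 higher there, and to 407 to 546 in CTNNB1_NFE2L2. The macrophage sum was 351 to 431 CPM in NFE2L2_MET and 244 to 308 in CTNNB1_MET. Between these 2 groups C1qb was called higher in NFE2L2_MET (0.47 ± 0.15). Adgre1, Cd68, Csf1r, C1qa, Clec4f and Marco were not called there. The 4 B and plasma cell markers summed to 1.54 to 2.31 CPM in WT, 6.99 to 9.91 in NFE2L2_MET, 7.79 to 16.2 in CTNNB1_MET, 2.39 to 3.08 in CTNNB1_NFE2L2 and 4.76 to 14.5 in the triple model. These 4 did not move together. In NFE2L2_MET against WT, Jchain was called higher (3.26 ± 0.56), at means of 7.31 and 0.753 CPM, and Cd79a, Cd79b and Ms4a1 were not called. Between CTNNB1_NFE2L2 and NFE2L2_MET, Jchain was called lower in CTNNB1_NFE2L2. Cd79b was called higher there, at means of 1.16 against 0.406 CPM, and Cd79a and Ms4a1 were not called. The 5 hepatocyte markers summed to 66730 to 89346 CPM in WT, 126050 to 169380 in NFE2L2_MET, 120550 to 128980 in CTNNB1_MET, 23226 to 31466 in CTNNB1_NFE2L2 and 61601 to 66894 in the triple model. Most of this sum was Alb, with means of 50866 CPM in WT, 123470 in NFE2L2_MET and 51499 in the triple model. In the triple model against WT, Alb was not called (0.02 ± 0.20), while Ttr, Apoa1, Serpina1c and Hnf4a were called lower. In NFE2L2_MET against WT, Alb (1.28 ± 0.20) and Apoa1 (0.55 ± 0.17) were called higher, and Ttr, Serpina1c and Hnf4a were not called. The part of other cell types in the mitotic levels was not tested.

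**Figure D5:**
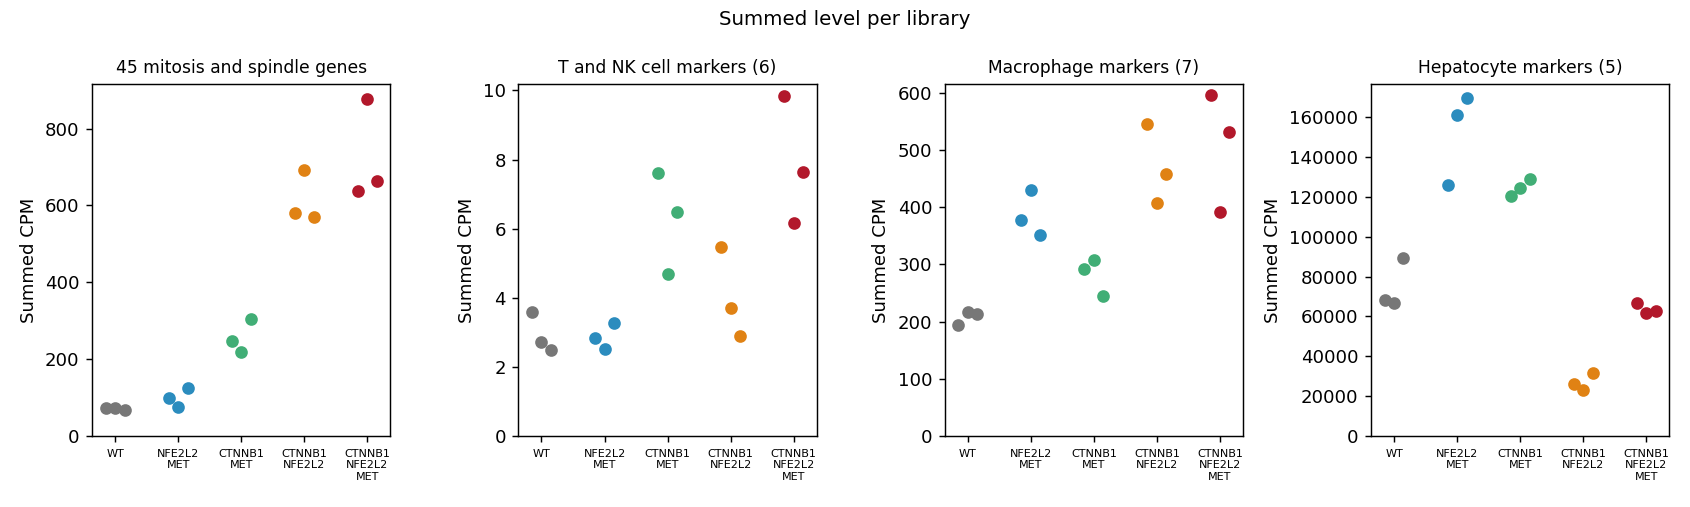
Summed CPM of the 45 members and of the T and NK cell, macrophage and hepatocyte markers in each library (points, linear axes from 0) by group. The summed members lie between 67.1 and 73.9 in WT and between 637 and 876 in the triple model, and the marker sums follow other orders of the groups.

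A wider list of 85 other mitotic genes was measured beside the members. Against WT, 75 were higher and none lower in the triple model (median 2.58), 74 higher and 1 lower in CTNNB1_NFE2L2, 52 higher and none lower in CTNNB1_MET, and 17 higher and 1 lower in NFE2L2_MET. Of all tested genes 26.5%, 24.5%, 11% and 13.5% were higher in these 4 comparisons, in the same order, and 9.89% were lower in NFE2L2_MET. The smallest p-values in the triple model were those of Arhgap11a (3.64 ± 0.23), Ckap2 (4.86 ± 0.32), a spindle-associated protein, Tacc3 (2.92 ± 0.19), which crosslinks kinetochore microtubules, Knstrn (3.92 ± 0.26), a kinetochore adaptor, and Smc4 (1.56 ± 0.11), a condensin core subunit.
Psrc1, a microtubule-associated protein, departed from the graded series: its level was 0.431, 0.297 and 0.0641 CPM in WT, 0.825, 1.53 and 0.687 in NFE2L2_MET, 6.56, 4.68 and 4.7 in CTNNB1_MET, 2.22, 3.08 and 1.5 in CTNNB1_NFE2L2 and 3.58, 4.62 and 3.99 in the triple model. Its highest group mean was in CTNNB1_MET, where it rose against WT (4.32 ± 0.44, adjusted p = 8.38e-06) and was lower in CTNNB1_NFE2L2 than in CTNNB1_MET (-1.22 ± 0.33, adjusted p = 0.00881). Mad1l1, the checkpoint partner of MAD2, was also lower in CTNNB1_NFE2L2 than in CTNNB1_MET (-1.12 ± 0.13) and WT (-0.59 ± 0.13). Mis12, a subunit of the complex that links the inner and outer kinetochore, was higher in NFE2L2_MET than in WT (0.80 ± 0.12) and CTNNB1_MET (0.80 ± 0.12), at 24.5 ± 1.31 CPM against 14.1 ± 1.0 CPM in WT.
When hMET was added to CTNNB1_NFE2L2, 5 of the 85 were higher and 2 lower, beside 13.1% and 11.8% of tested genes. Those lower were Spc24 (-0.93 ± 0.22, adjusted p = 0.00639), the partner of Spc25 in the Ndc80 complex, and Cenpt (-0.82 ± 0.22, adjusted p = 0.0144), which docks that complex on the centromere. Spc24 measured 31.5, 37.4 and 37.5 CPM in CTNNB1_NFE2L2 and 13.7, 27.4 and 14.6 in the triple model, and its partner Spc25 was not called between these groups (0.08 ± 0.21). Pbk, a mitotic kinase, measured 0.288, 0.119 and 0.449 CPM in WT, 8.45, 9.14 and 7.95 in CTNNB1_NFE2L2 and 7.53, 8.03 and 7.01 in the triple model, and its rise in CTNNB1_NFE2L2 against WT (4.89 ± 0.34) had the smallest p of the list.

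Genes that regulate the mitotic programme formed a list of 24. In the triple model against WT 9 were higher and 5 lower, with a median of 0.18. Of all tested genes 26.5% were higher and 49.9% changed in either direction, so these counts lie near the background. Mybl2 (B-MYB), which turns MuvB into an activator, measured 0.935, 0.653 and 0.385 CPM in WT, 0.884, 1.26 and 0.745 in NFE2L2_MET, 1.35, 1.28 and 1.04 in CTNNB1_MET, 1.79, 1.57 and 1.33 in CTNNB1_NFE2L2 and 2.87, 2.45 and 1.8 in the triple model, and it rose by 1.85 ± 0.34 (adjusted p = 0.000333). Rbl1 (p107), a pocket protein of DREAM, rose by 2.12 ± 0.27, and its relative Rbl2 (p130) was lower (-0.89 ± 0.19, adjusted p = 0.00117).
E2f1, an activator of S-phase genes, was higher in all 4 models than in WT, by 1.25 ± 0.19 in the triple model, 1.81 ± 0.19 in CTNNB1_NFE2L2, 0.72 ± 0.19 in CTNNB1_MET and 0.75 ± 0.19 in NFE2L2_MET. It was lower in the triple model than in CTNNB1_NFE2L2 (-0.56 ± 0.17, adjusted p = 0.026). E2f8, an atypical E2F that represses cell cycle genes and is known from hepatocyte polyploidy, went the other way, at 24.4, 45.5 and 20.5 CPM in WT, 21.2, 21.9 and 11.2 in NFE2L2_MET, 13.2, 15.7 and 21.5 in CTNNB1_MET, 5.36, 5.17 and 6.89 in CTNNB1_NFE2L2 and 6.5, 5.96 and 6.32 in the triple model. All triple-model and CTNNB1_NFE2L2 libraries were below all others, with log2 differences from WT of -2.27 ± 0.32 (adjusted p = 5.41e-05) and -2.38 ± 0.32 (adjusted p = 4.46e-05). Its close relative E2f7 measured 3.74, 7.24 and 1.73 CPM in WT, 3.48, 2.6 and 1.78 in NFE2L2_MET, 1.23, 1.7 and 0.888 in CTNNB1_MET, 1.5, 1.1 and 1.5 in CTNNB1_NFE2L2 and 1.13, 2.16 and 1.7 in the triple model, and it was called lower in the triple model, CTNNB1_NFE2L2 and CTNNB1_MET (-1.76 ± 0.45 in the last, adjusted p = 0.0137), although WT replicate 3 lay within the range of the triple model. Lin52, a MuvB subunit, was lower in the triple model (-0.91 ± 0.15), CTNNB1_NFE2L2 (-0.84 ± 0.15) and NFE2L2_MET (-0.59 ± 0.15).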

How the data were processed

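Trimming with Trimmomatic and alignment to mm10 with STAR are named in the submitters' processing notes, without versions or a gene annotation. The authors deposited raw read counts per gene for each library, unstranded and for each strand. Each strand took near 50% of the counts, so the unstranded column was used, and reads of genes that overlap on opposite strands cannot be divided. RNeasy Mini kits were used to isolate the RNA, per the labels' protocols.

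The 45 members and all gene lists were chosen with earlier results of these data known. Counts of 15 libraries were filtered with filterByExpr by group (minimum count 10), scaled by TMM and fitted with 1 coefficient per group in edgeR 4.0.16 (R 4.3.3, limma 3.58.1). The quasi-likelihood F test (robust) gave 10 comparisons, each adjusted by Benjamini-Hochberg over 14098 genes, with calls at an adjusted p under 0.05. CPM are the deposited counts scaled to a common TMM-adjusted library total. No pair of replicates was a duplicate: their chi-square per gene was 13.3 to 106. Values per library are given for lead members of each role and for members that departed from the others; of the wider and regulator lists, those with the smallest p or against the common direction are named. Bub1, Ttk, Melk and Cdc25c were named for such departures.

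Promoters are those of RefSeq and transcript lengths and exon overlaps those of GENCODE M21, both on GRCm38. Alternatives were RLE size factors, total-count scaling, no filter, DESeq2 1.42.0, only the 6 libraries compared, a term for or removal of the 3 marked libraries, counts of 1 strand, leaving out each library and, added after the data were seen, a term for the unmapped share. In counts simulated for the triple model against CTNNB1_NFE2L2 over 13909 genes, the test called 68 of 97 genes changed 2-fold, 87 of 98 changed 4-fold and 8 of 13714 unchanged genes. Only the changed genes differed between groups there, whereas 25% of tested genes were called in this comparison of the data. The simulated rates may therefore not hold for the data.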

Additional observations from a re-analysis of the deposited data

Results flagged for a closer look

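Members whose change against WT differed between models, tested by comparing the models directly with edgeR's quasi-likelihood test, were counted for each pair of models. Between the triple model and CTNNB1_NFE2L2 the change differed in 5 of 45 members, Bub1, Ccna2, Melk, Anln and Mki67, all higher in the triple model, where 25% of all tested genes differed and 13.1% were higher. Between the triple model and NFE2L2_MET it differed in 45, and between the triple model and CTNNB1_MET in 45, all higher in the triple model. NFE2L2_MET and CTNNB1_MET differed in 39, all lower in NFE2L2_MET, with Aurkb, Bub1, Kif11, Melk, Ncapg and Ttk not called. CTNNB1_NFE2L2 and CTNNB1_MET differed in 44, all higher in CTNNB1_NFE2L2, with Cdc25c not called. CTNNB1_NFE2L2 and NFE2L2_MET differed in 45, all higher in CTNNB1_NFE2L2. In the last 5 comparisons 30.7%, 33.8%, 14.3%, 35.1% and 37.2% of all tested genes differed, in this order. Each pair shares its WT libraries, and the direct comparison does not use them as a reference.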

How the results depend on the processing

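No paired analysis was possible because replicate numbers here follow accession order and link no libraries across groups. Of the 450 member values (45 members in 10 comparisons), from 423 to 448 kept their direction and their side of the threshold under each setting other than the term for the unmapped share, where 269 did and 181 were no longer called. One value turned, Ncapg in NFE2L2_MET against WT, at -0.31 with the counts of 1 strand. For hMET added to CTNNB1_NFE2L2 (5 members), RLE size factors, DESeq2 and the unmapped term each called 3 and the fit with no filter 2; leaving out 1 library gave 0 to 6. For NFE2L2_MET against WT (10), the 6 libraries alone called 1, with 1 member untested, the fit without the 3 marked libraries 5 and the unmapped term 0; leaving out 1 library gave 4 to 14. The unmapped term called 9 in the triple model against CTNNB1_MET, 14 against WT, 19 in CTNNB1_MET against WT, 13 in CTNNB1_NFE2L2 against WT and 7 in CTNNB1_NFE2L2 against CTNNB1_MET. The share moves with the groups, so the term takes up group differences as well. It lowered calls over all genes from 49.9% to 2.11% in the triple model against WT and from 23.4% to 1.00% in NFE2L2_MET against WT. Leaving out 1 library gave 44 to 45 in the triple model against CTNNB1_MET, 41 to 45 in CTNNB1_MET against WT, 30 to 39 in NFE2L2_MET against CTNNB1_MET, 40 to 44 in CTNNB1_NFE2L2 against CTNNB1_MET and 45 in each of the other 4 comparisons.

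Total-count scaling moved the median of all genes by over 0.1 in 8 of 10 comparisons, from -0.13 in NFE2L2_MET against WT to 0.38 in the triple model against NFE2L2_MET. It turned the genes called higher and lower from 2314 and 2011 to 6133 and 795 in the triple model against NFE2L2_MET, from 2597 and 2168 to 4970 and 1038 against CTNNB1_MET, from 3739 and 3300 to 5226 and 1892 against WT, and from 1909 and 1394 to 1372 and 2517 in NFE2L2_MET against WT. The members called were 45, 45, 45 and 8 in these 4 comparisons. In WT 15 members had a count under 10 in at least 1 library, which limits their values there.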

Other observations

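The members moved together between the libraries of a group. In CTNNB1_MET, replicate 3 was the highest library in 32 of 45 members (71.1%, against 33.0% of tested genes), and in WT replicate 3 the lowest in 22 (48.9%, against 35.6%). In CTNNB1_NFE2L2, replicate 2 was the highest in 41 (91.1%, against 29.6%). The members are therefore not independent measurements of a group.

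A pair of CCAAT boxes on the same strand, with first bases 31 to 34 apart, was found in 9 of the 38 matched promoters (23.7%), those of Cdk1, Ccnb1, Ccnb2, Aurka, Nek2, Spc25, Cdca8, Hmmr and Ube2c, against 0.966% of all RefSeq promoters and 1.64% of those of tested genes. The spacing was chosen after the positions had been seen. At least 2 CCAAT boxes at any spacing were found in 20 of 38 (52.6%, against 14.4% of tested genes).

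Cdkn1a (p21), an inhibitor of cyclin-dependent kinases, measured 4.39, 4.03 and 25.7 CPM in WT, 9.13, 13.6 and 12.4 in NFE2L2_MET, 21.9, 22 and 17.5 in CTNNB1_MET, 22.5, 18.4 and 15.5 in CTNNB1_NFE2L2 and 87.7, 33.8 and 25 in the triple model. WT replicate 3 lay apart from the other WT libraries and above all 3 NFE2L2_MET libraries. Replicate 1 of the triple model was the highest of all 15.

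Neutrophil markers, a list of 4 of which 3 were in the files, summed to 5.16 to 21.9 CPM in NFE2L2_MET and 0.719 to 4.45 CPM in WT. Endothelial markers summed to 193 to 206 CPM in NFE2L2_MET and 139 to 180 CPM in WT, stellate and fibroblast markers to 195 to 215 and 194 to 552 CPM, and cholangiocyte markers to 99.5 to 117.7 and 57.9 to 146 CPM. The cholangiocyte markers did not move together. Epcam was called higher in NFE2L2_MET than in WT (5.59 ± 0.34), with means of 37.8 and 0.779 CPM. Spp1 (-0.83 ± 0.31), Krt7, Krt19 and Sox9 were not called.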
